A study of Mus musculus with 6 samples.

Results

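The 9 CXC chemokine genes Cxcl1, Cxcl2, Cxcl5, Cxcl9, Cxcl10, Cxcl12, Cxcl13, Cxcl14 and Cxcl16 were followed through cells sorted from mouse colon tumors. They were taken by name, as 9 of the 19069 genes listed on any plate. Viable cells that stained negative for EPCAM, CD45 and CD31 had been sorted from AOM/DSS tumors, which are raised in the colon by a mutagen, azoxymethane, and by rounds of dextran sulfate sodium that inflame the gut, and were sequenced by SORT-seq, with 1 cell per well, 384 wells per plate and 1 plate per mouse. Fib Ctrl mice (plates 1, 3 and 4) were negative for the Col6a1Cre transgene and Fib ΔZeb1 mice (plates 2, 5 and 6) carried it. The floxed Zeb1 allele was shared by all animals. The Col6a1 promoter drives Cre in fibroblasts and other mesenchymal cells, so that Zeb1 was meant to be lost in these cells and not in the epithelium or in blood cells. The mice were age-matched littermates of both sexes, the label of every plate gives the cells as CAFs (cancer-associated fibroblasts), and the entry for treatment reads None on all 6. Plate 6 came from another sequencing run than the other 5.

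CXC chemokines are small secreted proteins that steer leukocytes through G protein-coupled receptors. Cxcl1, Cxcl2 and Cxcl5 attract neutrophils through Cxcr2 and are typical targets of NF-kB. Cxcl9 and Cxcl10 are induced by interferons and attract T cells through Cxcr3. Cxcl12 (ligand of Cxcr4 and of the scavenger receptor Ackr3), Cxcl13 (ligand of Cxcr5, a B cell attractant) and Cxcl14 are made by stromal cells without acute stimulation, and Cxcl16 is a membrane-bound ligand of Cxcr6 that is shed by proteases.

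In GRCm38 (GENCODE M21), 6 of the 9 genes lie on chromosome 5. Cxcl5 (chr5:90759360-90761624), Cxcl1 (chr5:90891241-90893115) and Cxcl2 (chr5:90903871-90905938) are on the plus strand, with 10.8 kb between Cxcl1 and Cxcl2. Cxcl9 (chr5:92321347-92328079) and Cxcl10 (chr5:92346638-92348889) are minus-strand neighbours 18.6 kb apart, and Cxcl10 overlaps Art3 on the other strand. Cxcl13 is at chr5:95956951-95961068 on the plus strand. Cxcl12 is at chr6:117168535-117181367 (plus), Cxcl14 at chr13:56288643-56296551 (minus) and Cxcl16 at chr11:70453983-70459984 (minus), where it overlaps Zmynd15 on the other strand. All 9 are protein-coding.

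The promoters of the 2 neighbouring pairs are shown because these pairs behaved differently in the wells. RefSeq promoter windows (GRCm38.p6) were at hand for 7 of the 9 members, Cxcl5 and Cxcl16 being the others, and the 250 bases before the start were searched on both strands for the NF-kB consensus and for the interferon-response letters GAAA, any 2 bases and GAAA again. Capitals mark the matches. The windows lie at chr5:90890995-90891244 for Cxcl1 and chr5:90903649-90903898 for Cxcl2, both read from the plus strand, and at chr5:92328080-92328329 for Cxcl9 and chr5:92348890-92349139 for Cxcl10, both read from the minus strand.
Cxcl1: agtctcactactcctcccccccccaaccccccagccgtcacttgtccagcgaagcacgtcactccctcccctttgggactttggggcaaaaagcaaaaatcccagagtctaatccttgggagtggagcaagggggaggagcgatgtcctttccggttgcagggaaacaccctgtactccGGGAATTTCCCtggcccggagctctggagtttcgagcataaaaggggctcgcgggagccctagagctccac
Cxcl2: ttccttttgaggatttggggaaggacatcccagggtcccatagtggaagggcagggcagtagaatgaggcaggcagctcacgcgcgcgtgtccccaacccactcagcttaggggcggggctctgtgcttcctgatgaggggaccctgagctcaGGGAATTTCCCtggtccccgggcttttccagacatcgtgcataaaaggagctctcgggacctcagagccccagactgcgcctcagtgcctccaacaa
Cxcl9: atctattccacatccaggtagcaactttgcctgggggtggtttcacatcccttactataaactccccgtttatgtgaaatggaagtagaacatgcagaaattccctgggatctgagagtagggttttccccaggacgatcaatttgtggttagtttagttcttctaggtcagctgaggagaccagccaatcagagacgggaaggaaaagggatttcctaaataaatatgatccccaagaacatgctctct
Cxcl10: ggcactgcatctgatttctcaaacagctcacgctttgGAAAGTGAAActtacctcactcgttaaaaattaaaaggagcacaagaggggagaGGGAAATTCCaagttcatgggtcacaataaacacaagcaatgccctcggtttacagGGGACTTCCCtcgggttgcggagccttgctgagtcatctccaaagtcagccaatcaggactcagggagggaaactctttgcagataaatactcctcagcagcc
Cxcl1 and Cxcl2 held the same NF-kB letters, GGGAATTTCC, beginning 71 and 97 bases before the start, and both also matched on the opposite strand 1 base further on. Cxcl10 held NF-kB matches beginning 159 and 103 bases before the start and an interferon-response match, GAAAGTGAAA, at 213. The window of Cxcl9 held none, nor did those of Cxcl12 and Cxcl13, and Cxcl14 held GAAACAGAAA at 172. Of 32851 promoters of the same length, 3.9% held the NF-kB consensus and 2.98% the interferon-response letters. A match is a description of the letters and not of a bound factor.

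Of 2304 wells, 1233 had 100 to 6000 genes and less than 10% mitochondrial transcripts, between 109 and 298 per plate. Marker lists without any CXC ligand assigned these wells to classes. There were 505 fibroblast-like, 424 neutrophil-like, 88 mural-like (pericyte or smooth muscle) and 88 epithelial-like wells, and the remaining 128 were of rarer, mixed or no class. By these markers 40.96% of these wells, all labelled CAFs, were fibroblast-like. For its own CAF analysis the study removed cells high in Ptprc and Epcam, a step that was not applied in the main comparisons here. The 40.96% is therefore no share of the study's CAF set. The neutrophil-like wells carried 1216 to 1628 CPM (transcripts per 1000000 in the summed wells of a plate and class) of Ptprc, which codes for CD45, against 0 to 15.4 CPM in fibroblast-like wells, although the sort was for CD45-negative cells. Fibroblast-like wells were divided into 314 adventitial-like wells (markers such as Pi16, Cd34 and Sfrp4, the iCAF type), 106 telocyte-like wells (Foxl1, Bmp7 and Wnt5a) and 85 others with markers of neither. Of these others 62 lay near a class border, and only plates 1 and 2 held at least 10 of them. The adventitial list also held Ptx3, Has1, C3 and Cd55. Classes entered a sum when a plate held at least 10 wells, which left 6 plates for fibroblast-like and neutrophil-like wells, plates 1, 2 and 4 for mural-like and telocyte-like, plates 4, 5 and 6 for epithelial-like and plates 1, 2, 4 and 5 for adventitial-like wells. The median depth per well was 12153 transcripts in fibroblast-like and 1419 in neutrophil-like wells. Zeb1 itself, in fibroblast-like wells, was at 113, 108 and 98.7 CPM on Fib Ctrl plates 1, 3 and 4 and at 58.8, 72.9 and 54.0 CPM on Fib ΔZeb1 plates 2, 5 and 6. The genotypes did not overlap in Zeb1, and transcripts were still counted on every Fib ΔZeb1 plate.

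The first question was which cell type makes each ligand, and the 9 genes divided among the classes. Fibroblast-like wells held 98.9% of all kept Cxcl13 transcripts, 97.0% of Cxcl12, 88.8% of Cxcl14, 85.7% of Cxcl5 and 82.5% of Cxcl1. For Cxcl2 the share was 13.9%, with 75.4% in neutrophil-like wells. Cxcl9 (70.4%), Cxcl16 (62.9%) and Cxcl10 (61.7%) were in between. These shares depend on how many cells of a class were sorted, and the levels per class that follow do not. The levels are relative to the RNA of a class, and RNA per well differed between classes. Summed counts of plate and class were compared by edgeR in a fit with plate as a term. Against fibroblast-like wells, 1 member was higher and 7 were lower in neutrophil-like wells, where 23.9% of the 6277 genes tested were called higher and 43.5% lower. In mural-like wells 0 members were higher and 4 lower, against a background of 6.29% higher and 7.47% lower. In epithelial-like wells 0 were higher and 6 lower, against 7.82% and 16.6%. The median log2 fold change of the 9 members was -3.14 in neutrophil-like, -1.56 in mural-like and -2.48 in epithelial-like wells, beside -0.78, -0.03 and 0.02 for all genes tested.

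**Figure D1:**
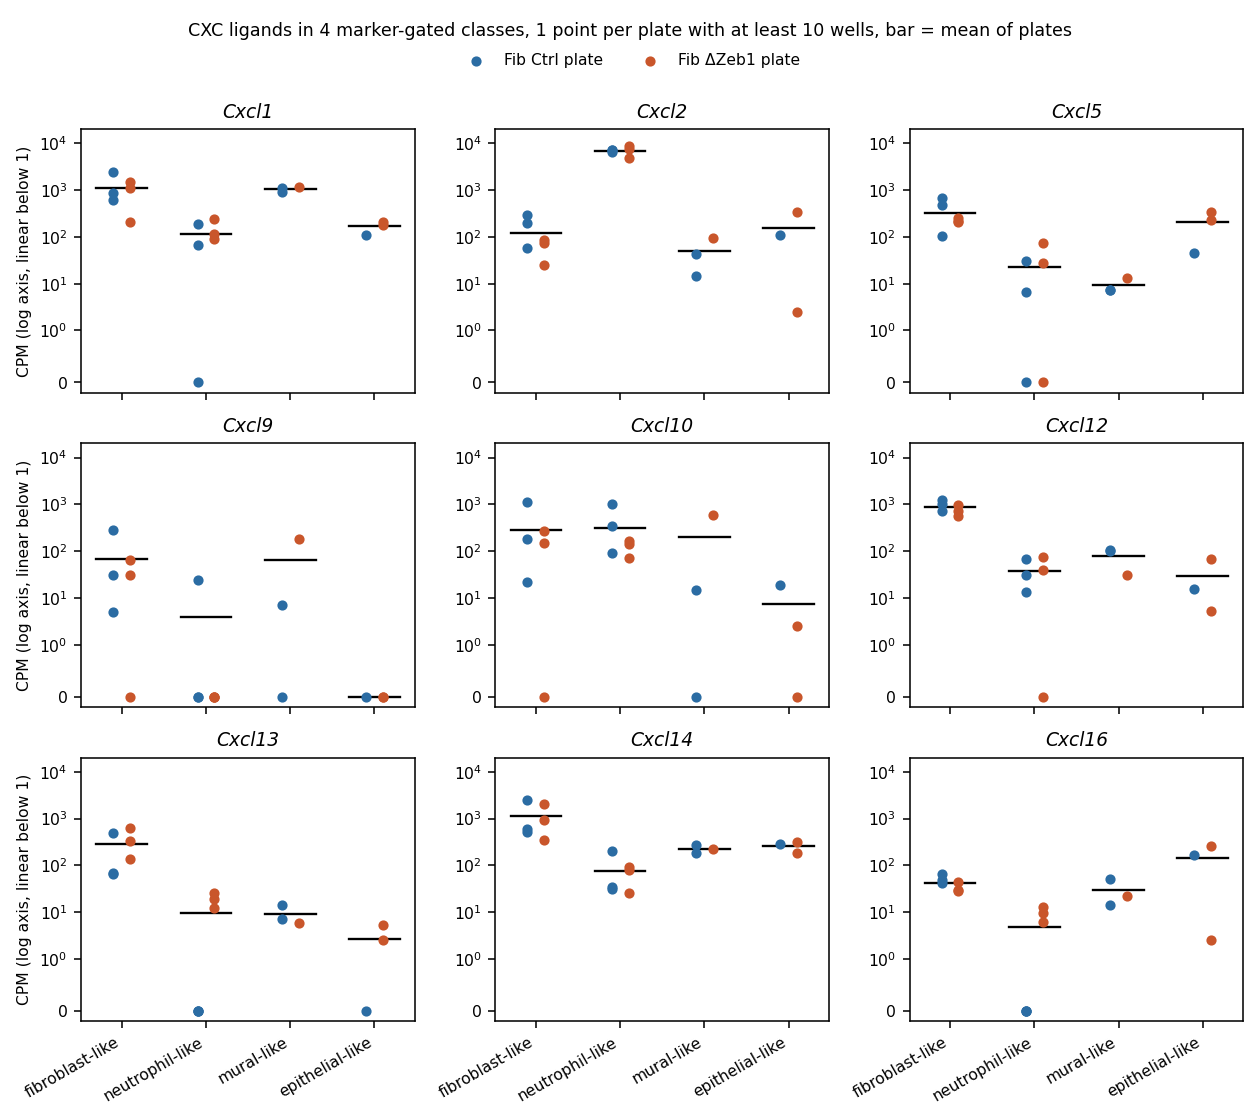
Level of the 9 ligands in CPM (log axis, linear below 1) in fibroblast-like, neutrophil-like, mural-like and epithelial-like wells, with 1 point per plate, Fib Ctrl in blue, Fib ΔZeb1 in orange and a bar at the mean of plates. Cxcl2 stands at 4836 to 8744 CPM in neutrophil-like wells and at 24.5 to 291 CPM in fibroblast-like wells, and Cxcl12 shows the reverse order.

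Among the neutrophil attractants, Cxcl2 was the ligand of the neutrophil-like wells themselves. Its level there was 6471, 7082 and 7142 CPM on Fib Ctrl plates 1, 3 and 4 and 8744, 7454 and 4836 CPM on Fib ΔZeb1 plates 2, 5 and 6. In fibroblast-like wells of the same plates it was 201, 57.6 and 291 CPM (plates 1, 3 and 4) and 86.4, 75.1 and 24.5 CPM (plates 2, 5 and 6). On every plate Cxcl2 therefore made up far more of the RNA of neutrophil-like wells, by 6.17 ± 0.62 on the log2 scale (SE, 18 sums, edgeR, adjusted p = 1.79e-10). These wells held less RNA, at a median of 1419 against 12153 transcripts. In counts, 4835 Cxcl2 transcripts lay in the 424 neutrophil-like wells and 890 in the 505 fibroblast-like wells, a smaller difference per well. Cxcl2 was found in 394 of the 424 neutrophil-like wells, and in 92.3% of them (95% exact interval 88.6% to 95.03%) after every well had been thinned to 1000 barcodes, against 6.98% (4.88% to 9.62%) of fibroblast-like wells. In mural-like and epithelial-like wells Cxcl2 was at 14.4 to 93.8 CPM and 2.5 to 348 CPM, and the differences from fibroblast-like wells, -1.56 ± 0.76 and -0.09 ± 0.76, did not pass (edgeR, adjusted p = 0.22 and 0.96), although the mural one passed without plate 2 (0.041), plate 5 (0.0096) or plate 6 (0.045). Wells of under 1000 barcodes were left out of the thinned shares, 127 neutrophil-like and 18 fibroblast-like, and these intervals cover counting error only.

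Cxcl1, which shares its receptor and its promoter motif with Cxcl2, was highest in fibroblast-like and mural-like wells. Of the 88 mural-like wells 26 had also passed the fibroblast border, and 5 wells held 42.6% of the mural Cxcl1 transcripts. Fibroblast-like wells held 2392, 626 and 862 CPM on Fib Ctrl plates and 1129, 1478 and 211 CPM on Fib ΔZeb1 plates. Mural-like wells held 1134, 1176 and 893 CPM on plates 1, 2 and 4, more than the fibroblast-like wells of plates 2 and 4 and less than those of plate 1, with a log2 difference of -0.26 ± 0.49 (edgeR, adjusted p = 0.88). Neutrophil-like wells were lower on all 6 plates (0 to 243 CPM), by -2.67 ± 0.44 (adjusted p = 3.83e-06), and epithelial-like wells were at 108, 211 and 182 CPM on plates 4, 5 and 6, lower by -2.48 ± 0.57 (adjusted p = 8.49e-04, both edgeR). At 1000 barcodes, 41.5% of fibroblast-like wells had Cxcl1, 35.6% of mural-like, 9.64% of epithelial-like and 6.40% of neutrophil-like wells.

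Cxcl5 was counted in both fibroblast-like and epithelial-like wells. It stood at 470, 692 and 107 CPM in fibroblast-like wells of plates 1, 3 and 4 and at 209, 252 and 221 CPM on plates 2, 5 and 6, and at 46.2, 335 and 230 CPM in epithelial-like wells of plates 4, 5 and 6. The difference of -0.56 ± 0.52 between these classes did not pass (edgeR, adjusted p = 0.51), but it did where sums of at least 5 wells were taken (-1.61, adjusted p = 0.026), and at 1000 barcodes 15.4% of fibroblast-like and 3.61% of epithelial-like wells had Cxcl5. A single well of plate 5 gave 36.3% of the epithelial Cxcl5 transcripts, and the leading 5 wells 91.0%. In mural-like wells Cxcl5 was nearly absent (7.21, 13.4 and 7.20 CPM on plates 1, 2 and 4), lower than in fibroblast-like wells by -4.58 ± 0.71 (adjusted p = 5.48e-06), which separated it from Cxcl1. Neutrophil-like wells, at 0 to 72.6 CPM, were lower by -3.25 ± 0.52 (adjusted p = 2.38e-06, both edgeR).

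The ligands that stromal cells make without acute stimulation were those with the most of their transcripts in fibroblast-like wells. Cxcl12 was the most even of the 9, with 1228, 1001 and 735 CPM on Fib Ctrl plates and 983, 715 and 566 CPM on Fib ΔZeb1 plates, so that the highest plate was 2.17 times the lowest. It was found in 415 of the 505 wells and in 47.0% at 1000 barcodes. Mural-like wells were at 101, 31.2 and 108 CPM, lower by -3.92 ± 0.60 (adjusted p = 4.02e-06), neutrophil-like wells at 0 to 74.8 CPM, lower by -4.49 ± 0.50 (1.83e-09), and epithelial-like wells at 5.33 to 67.6 CPM, lower by -4.96 ± 0.65 (1.58e-07, all adjusted p from edgeR).

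Cxcl13 was found almost wholly in fibroblast-like wells, at 494, 65.3 and 69.2 CPM on Fib Ctrl plates and 134, 329 and 635 CPM on Fib ΔZeb1 plates. It was unevenly spread among them, with 5 of the 505 wells giving 35.7% of the transcripts. It was lower by -4.38 ± 0.52 in neutrophil-like wells (edgeR, adjusted p = 7.51e-09) and by -4.70 ± 0.60 in mural-like wells (edgeR, adjusted p = 1.79e-07). Epithelial-like wells of plates 4, 5 and 6 together held 2 Cxcl13 transcripts, so that fibroblast-like wells of these plates were 117 times higher with a counting interval of 32.1 to 965. Lymphoid-like wells, the cells that Cxcl13 attracts, numbered 8 in this sort for CD45-negative cells.

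Cxcl14, a ligand made by epithelium and fibroblasts alike in many tissues, was at 521, 586 and 2494 CPM on plates 1, 3 and 4 and at 929, 350 and 2001 CPM on plates 2, 5 and 6. It was present at a lower level in the other classes, at 187 to 274 CPM in mural-like and 181 to 310 CPM in epithelial-like wells. These were lower by -2.30 ± 0.54 (edgeR, adjusted p = 0.0018) and -2.16 ± 0.55 (edgeR, adjusted p = 0.0026). Both calls were lost without plate 4 (adjusted p = 0.060 and 0.063), and the epithelial one also without plate 6 (0.063). Neutrophil-like wells were at 25.9 to 203 CPM, lower by -3.51 ± 0.44 (edgeR, adjusted p = 2.82e-08).

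Cxcl16 was low everywhere and was not a fibroblast ligand alone. Fibroblast-like wells held 48.4, 42.2 and 64.1 CPM on plates 1, 3 and 4 and 44.4, 28.1 and 29.4 CPM on plates 2, 5 and 6. Epithelial-like wells were at 166, 2.5 and 256 CPM on plates 4, 5 and 6, higher than the fibroblast-like wells on plates 4 and 6 and lower on plate 5. The difference of 0.97 ± 0.57 did not pass (edgeR, adjusted p = 0.25), but it did without plate 5 (1.83, adjusted p = 5.1e-04). In neutrophil-like wells 3 Cxcl16 transcripts were counted in all, 10.5 times less than in fibroblast-like wells, with a counting interval of 3.57 to 51.4 (edgeR, log2 fold change -2.89 ± 0.87, adjusted p = 0.0043).

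Cxcl9 and Cxcl10, the interferon-induced pair, came from few wells that each held many transcripts. In fibroblast-like wells Cxcl10 was at 186, 1099 and 21.4 CPM on plates 1, 3 and 4 and at 148, 270 and 0 CPM on plates 2, 5 and 6. Cxcl9 was at 31.4, 283 and 4.93 CPM on plates 1, 3 and 4 and at 63.1, 31.3 and 0 CPM on plates 2, 5 and 6. Only 22 of 505 fibroblast-like wells had any Cxcl9, and 5 wells held 73.8% of its transcripts. Cxcl10 was in 92 wells, 5 of which held 52.3%. On plate 3 a single telocyte-like well held 242 of the 286 Cxcl10 transcripts and 72.6 of the 73.6 Cxcl9 transcripts, and without it the fibroblast-like level of plate 3 was 178 CPM for Cxcl10 and 4.03 CPM for Cxcl9. On plate 2 a mural-like well held 340 Cxcl10 and 114 Cxcl9 transcripts and lifted the mural level to 599 and 185 CPM, against 99.2 and 17.2 CPM without it. Both wells carried fibroblast markers and none of phagocytes. The well of plate 3 showed 7 of 10 fibroblast markers and the mural-like well 8 of them, and both had 0 transcripts of 12 mononuclear phagocyte markers and 0 of Ptprc.

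The wells with the most Cxcl10 also carried other interferon response genes. The 16 listed genes (among them Irf1, Gbp2 and Isg15) summed to 11313 CPM in the leading fibroblast-like well of plate 3, against 2095 CPM in all fibroblast-like wells of that plate. The leading wells of plates 1, 2 and 5 were at 7898, 9995 and 3645 CPM, against 913, 1166 and 1364 CPM. The leading well of plate 4, with 10.0 Cxcl10 transcripts, was at 211 CPM and did not share this. Over the fibroblast-like wells with any Cxcl10 the list was 1.53 to 2.56 times as high as in wells without on 4 of 4 plates, and with Cxcl9 3.35 to 6.24 times on 2 of 2 plates.

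At a mean of 306 CPM over 6 plates, Cxcl10 came next after Cxcl2 among the 9 ligands in the neutrophil-like wells. By plate, this order held on plates 3, 4 and 5 only. Cxcl1 was higher than Cxcl10 in these wells on plates 1, 2 and 6, and so was Cxcl14 on plate 6. The neutrophil-like wells held 92.1, 1027 and 338 CPM of Cxcl10 on plates 1, 3 and 4 and 140, 168.3 and 72.6 CPM on plates 2, 5 and 6. On plate 3, 38 wells contributed, whereas on plate 4 all 10.0 transcripts were in 1 well. Against fibroblast-like wells the difference was 0.82 ± 0.63 (edgeR, adjusted p = 0.25), with 2 of 6 plates higher, and it passed without plate 5 (1.13, adjusted p = 0.012). Epithelial-like wells held 0 to 19.2 CPM of Cxcl10, lower by -3.61 ± 1.16 (edgeR, adjusted p = 0.018), a call that was lost without plate 5 (adjusted p = 0.12) and with DESeq2 (0.087). Cxcl9 was not detected in epithelial-like wells of plates 4, 5 and 6, which with a floor of 3 transcripts over these wells was at least 5.25-fold lower than in the fibroblast-like wells of the same plates (edgeR, adjusted p = 0.0074, lost with DESeq2 at 0.29 and without plate 5 at 0.34). With Cxcl9 set at this bound of -2.39, the median over members in epithelial-like wells is -2.39. The bound rests on few wells, as 1 well of plate 5 held 23.1 of the 33 fibroblast-like Cxcl9 transcripts of plates 4, 5 and 6. In neutrophil-like wells Cxcl9 came to 7 transcripts, all on plate 3, lower by -3.14 ± 0.76 (edgeR, adjusted p = 6.40e-04), which did not pass with DESeq2 (0.19) or without the plate term (0.13). The lower median of all genes in neutrophil-like wells (-0.78) moved to -1.23 with another scaling (RLE), which left the direction of all 9 members as it was.

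**Figure D2:**
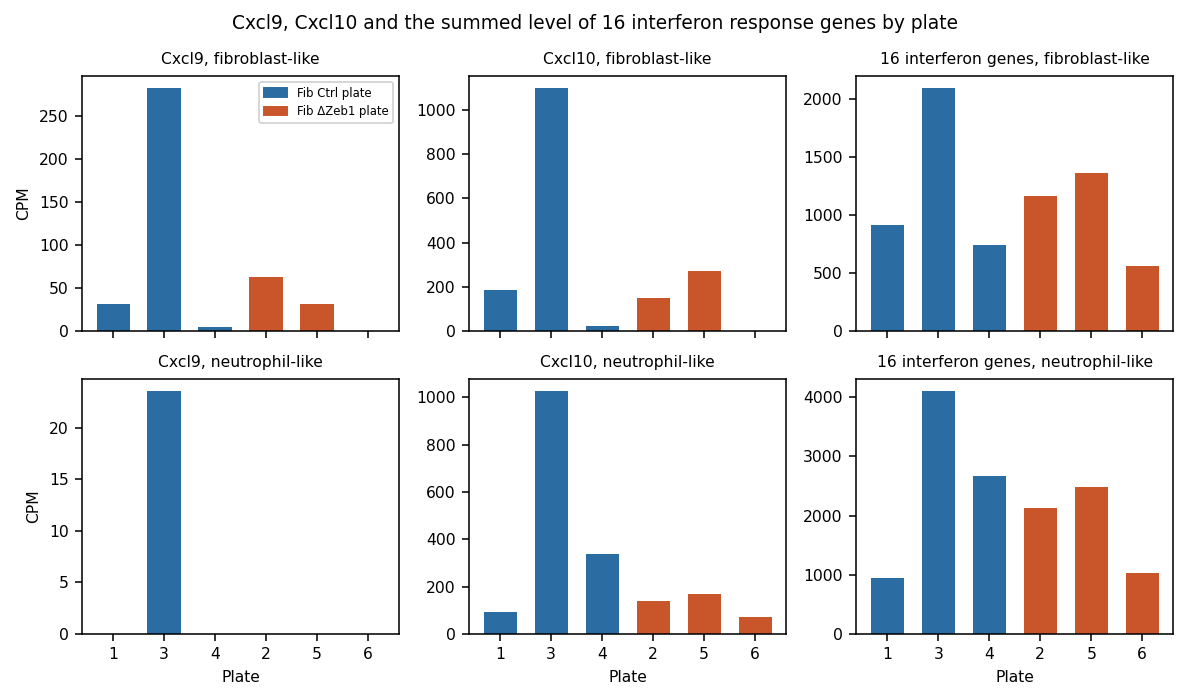
Bars give the CPM of Cxcl9, of Cxcl10 and of 16 summed interferon response genes on each plate in fibroblast-like (top) and neutrophil-like wells (bottom), Fib Ctrl in blue and Fib ΔZeb1 in orange. Plate 3 is highest in all 6 panels, with 1099 CPM of Cxcl10 in fibroblast-like and 1027 CPM in neutrophil-like wells.

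Wells of 1 plate can share RNA freed from broken cells, which would bring ligands and the abundant transcripts of their cells in a fixed ratio. Collagen transcripts (Col1a1, Col1a2 and Col3a1) were counted in neutrophil-like wells, and the level of each ligand at the fibroblast-like ratio to them was computed per plate. Cxcl2 (6955 against 7.35 CPM, means of 6 plates) and Cxcl10 (306 against 14.8 CPM) were above this level on 6 of 6 plates. Cxcl1 (117 against 82.2 CPM) and Cxcl14 (77.5 against 57.0) were above it on 4 plates, Cxcl16 (4.72 against 2.65) on 3, Cxcl13 (9.45 against 16.9) on 2, and Cxcl5 (23.0 against 19.2), Cxcl9 (3.93 against 3.77) and Cxcl12 (37.6 against 58.3) on 1. On plate 6 Cxcl1 (115 against 6.12 CPM) and Cxcl5 (72.6 against 6.40 CPM) were well above it. Cxcl10 in fibroblast-like wells came from few wells, so that its ratio to collagens there rested on these. On plate 6 these wells held 0 CPM of Cxcl10, so that any transcript in neutrophil-like wells lay above the level. On plate 4 the level was 0.63 CPM, and 1 neutrophil-like well exceeded it. The part of shared RNA in the levels of the 9 ligands was not tested. In the other direction, Cxcl2 in fibroblast-like wells (123 CPM) exceeded the level at the neutrophil ratio to S100a8 and S100a9 (7.02 CPM) on 6 of 6 plates. In epithelial-like wells Cxcl1, Cxcl2, Cxcl5, Cxcl14 and Cxcl16 exceeded the fibroblast collagen ratio on 3 of 3 plates, while Cxcl2 exceeded the neutrophil ratio on 2 of 3 (2.5 against 31.0 CPM on plate 5). In mural-like wells Cxcl1 was at 1068 CPM against 763 CPM at the fibroblast collagen ratio (means of 3 plates). It was above that level on 2 of the 3 plates and below it on plate 1 (1134 against 1175 CPM). Mural-like wells held 12240.8 to 22520.5 CPM of the 10 summed fibroblast markers, these collagens among them, against 1181 to 5370 CPM in neutrophil-like wells. The collagen ratio therefore cannot gauge shared RNA in mural-like wells.

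**Figure D3:**
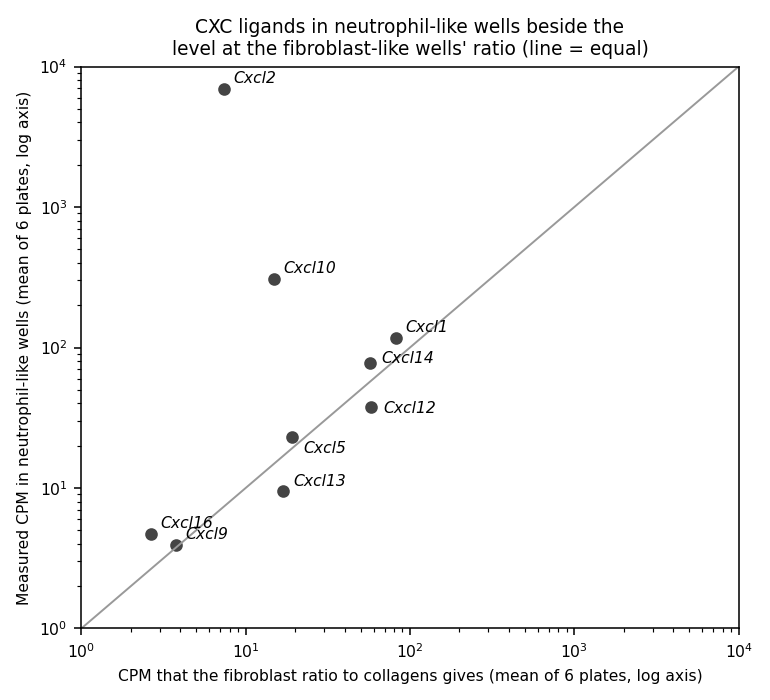
Measured mean CPM of each ligand in neutrophil-like wells of 6 plates against the mean CPM that the fibroblast-like ratio to 3 collagens gives (both log axes, line = equal). Cxcl2 (6955 against 7.35) and Cxcl10 (306 against 14.8) lie far above the line, and the other 7 ligands lie near it.

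Within the fibroblast-like wells the ligands divided between the adventitial-like and the telocyte-like class. In telocyte-like wells 2 members were higher (Cxcl14 and Cxcl9) and 3 lower (Cxcl1, Cxcl12 and Cxcl13), where 7.33% of the 7002 genes tested were called higher and 9.15% lower. The median over members was -0.69 beside 0.01 for all genes. Cxcl14 had the clearest difference. Telocyte-like wells held 2493, 2174 and 3967 CPM on plates 1, 2 and 4, and adventitial-like wells 103, 183, 387 and 129 CPM on plates 1, 2, 4 and 5, without overlap. The difference was 3.75 ± 0.30 on the log2 scale (edgeR, 9 sums, adjusted p = 1.06e-05), and at 1000 barcodes 77.4% (68.2% to 84.9%) of telocyte-like wells had Cxcl14 against 8.97% (6.05% to 12.7%) of adventitial-like wells. The 106 telocyte-like wells held 68.4% of all kept Cxcl14 transcripts.

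Adventitial-like wells held more Cxcl12, Cxcl13 and Cxcl1. Cxcl12 was at 1443, 1230, 931 and 701 CPM on plates 1, 2, 4 and 5, against 539, 489 and 520 CPM in telocyte-like wells of plates 1, 2 and 4, lower there by -1.35 ± 0.20 (edgeR, adjusted p = 6.48e-04). Cxcl13 was at 669, 180, 140 and 366 CPM against 21.6, 89.4 and 37.1 CPM, lower by -2.42 ± 0.53 (edgeR, adjusted p = 0.0078). Cxcl1 was at 3309, 1634, 1021 and 1630 CPM against 279, 543 and 908 CPM. The groups did not overlap, but on plate 4 the 2 classes were close, and the difference of -1.98 ± 0.53 (edgeR, adjusted p = 0.023) was lost without plate 1 (0.064), without plate 2 (0.20) and with DESeq2 (0.093). At 1000 barcodes 55.4% of adventitial-like and 17.9% of telocyte-like wells had Cxcl1. Cxcl2, Cxcl5, Cxcl10 and Cxcl16 differed by -0.69 ± 0.46, -0.64 ± 0.34, -0.73 ± 0.44 and 0.53 ± 0.31, none past the threshold (edgeR, adjusted p = 0.39, 0.26, 0.33 and 0.31), although Cxcl10 passed without plate 1 (-1.50, adjusted p = 0.020) and Cxcl2 without wells near a class border (-1.18, 0.0065) and without a filter on low counts (-0.69, 0.036). Cxcl2 was higher in telocyte-like wells on 2 of 3 plates.

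Cxcl9 was higher in telocyte-like wells by 5.63 ± 0.69 (edgeR, adjusted p = 2.61e-04), on narrow ground. Telocyte-like wells were at 118, 73.7 and 0 CPM on plates 1, 2 and 4 from 3, 4 and 0 wells, with 1 well giving 65.8% on plate 1 and 62.8% on plate 2, and adventitial-like wells at 0.68, 2.44, 0 and 8.83 CPM. All 314 adventitial-like wells together held 11 Cxcl9 transcripts. The wells outside both classes had, against adventitial-like wells, higher Cxcl9, Cxcl10 and Cxcl14 and lower Cxcl2 (6.46, 1.96, 2.14 and -3.24; edgeR, adjusted p = 0.0011, 0.033, 0.0061 and 0.042), where 1.37% of genes were called higher and 1.67% lower. This rests on plates 1 and 2, where Cxcl10 was at 413 and 545 CPM from 2 wells each and Cxcl9 at 86.2 and 242 CPM, and without plate 2 none of the 4 passed (adjusted p = 0.076, 0.68, 0.41 and 0.31), nor did Cxcl2 without plate 1 (0.082). Without the plate term Cxcl10, Cxcl14 and Cxcl2 were lost (0.13, 0.067 and 0.12), and with DESeq2 Cxcl10 (0.068). Leaving out the wells near a class border turned Cxcl9 and Cxcl10 around (-2.14 and -9.19), ended the calls of Cxcl14 (0.32) and Cxcl2 (0.54) and made Cxcl1 pass (-3.34, 4.08e-07). With a mitochondrial limit of 20% Cxcl1 (-2.73, 2.67e-05) and Cxcl13 (-1.85, 0.0057) passed as lower. Telocyte-like wells were higher than these other wells in Cxcl14 (1.61, adjusted p = 0.028) and lower in Cxcl10 (-2.70, adjusted p = 0.011, both edgeR), with 0.9% of genes called higher and 1.49% lower, and both calls were lost without plate 2 (0.19 and 0.37), that of Cxcl14 also without plate 1 (0.59). Without the plate term neither passed (0.12 and 0.068), Cxcl10 was lost with at least 5 wells (0.28), and without wells near a class border it turned to 8.34.

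**Figure D4:**
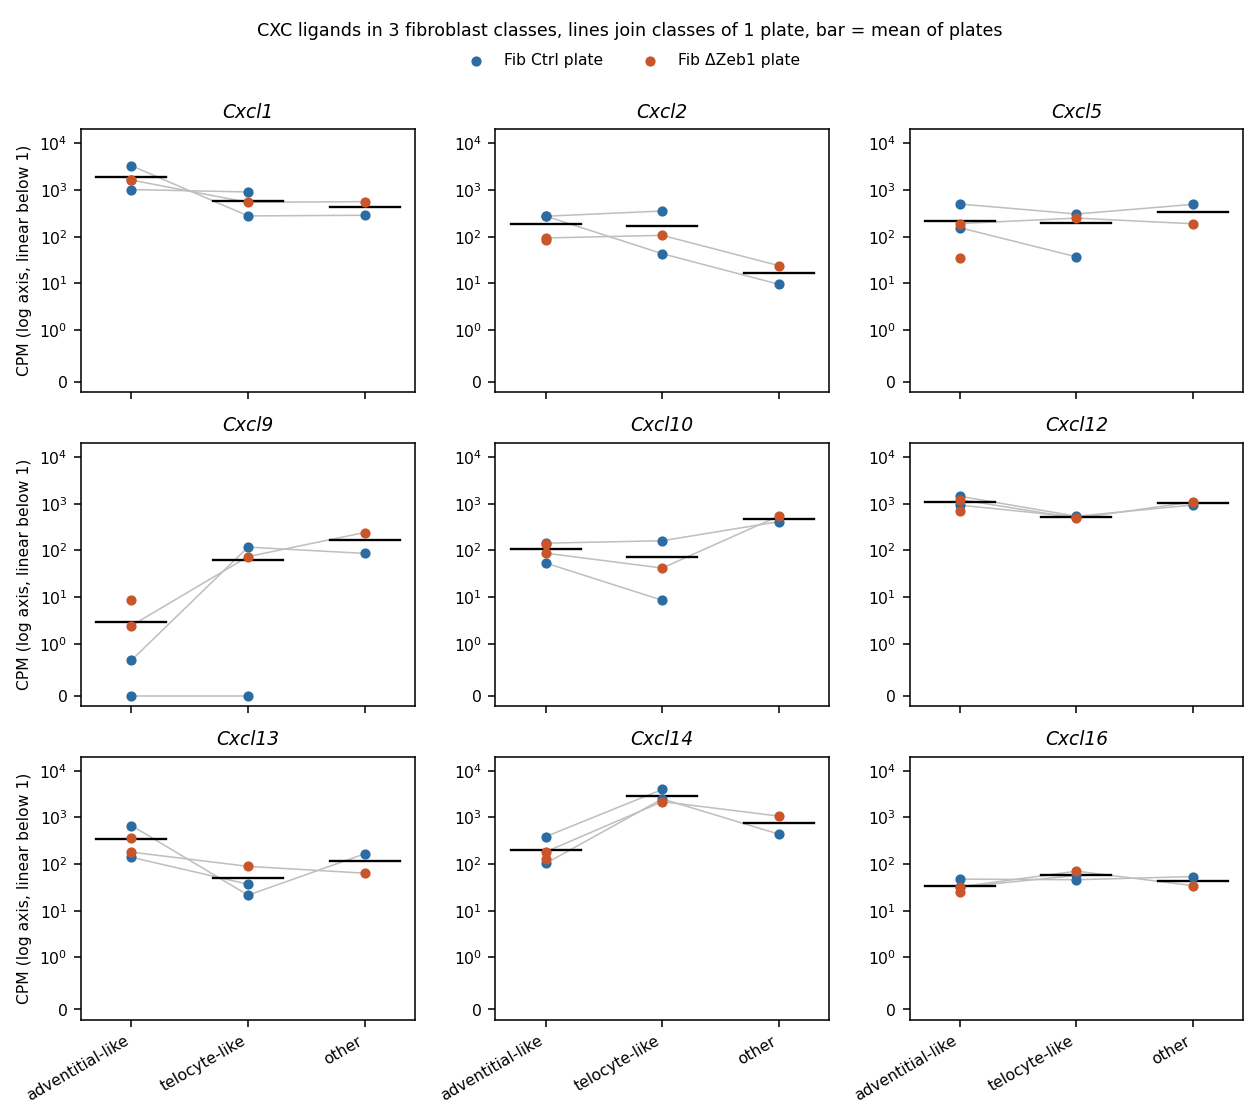
Level of the 9 ligands in CPM (log axis, linear below 1) in adventitial-like, telocyte-like and other fibroblast-like wells, with 1 point per plate, grey lines joining the classes of a plate and bars at the mean. Cxcl14 is at 103 to 387 CPM in adventitial-like and at 2174 to 3967 CPM in telocyte-like wells, and Cxcl12 and Cxcl13 lie the other way round.

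Single fibroblast-like wells often carried several ligands. In 487 wells thinned to 1000 barcodes, 23 of the 36 pairs were found together in more wells than the shares of the 2 ligands within each plate give, and 21 of 36 at 500 barcodes. Cxcl1 and Cxcl2 were together in 25 wells, where 13.8 were expected, and Cxcl9 and Cxcl10 in 5, where 0.81 were expected. Cxcl12 and Cxcl13 shared 43 wells against 28.3, and Cxcl5 and Cxcl13 shared 16 against 9.77. Of the 21 pairs with at least 5 expected wells 8 were below expectation, and 5 of these held Cxcl14. Cxcl13 and Cxcl14 shared 8 wells against 13.2, and Cxcl1 and Cxcl14 shared 37 against 49.2. At 500 barcodes Cxcl13 and Cxcl14 were on the other side (8 wells against 7.22), and Cxcl1 and Cxcl14 were not (21 against 28.3). When the shares were taken within plate and fibroblast class, these 2 pairs came to 8.08 and 33.6 expected wells, whereas Cxcl1 with Cxcl2 (16.1) and Cxcl12 with Cxcl13 (29.1) stayed above expectation. These counts describe wells of shared plates and carry no test.

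**Figure D5:**
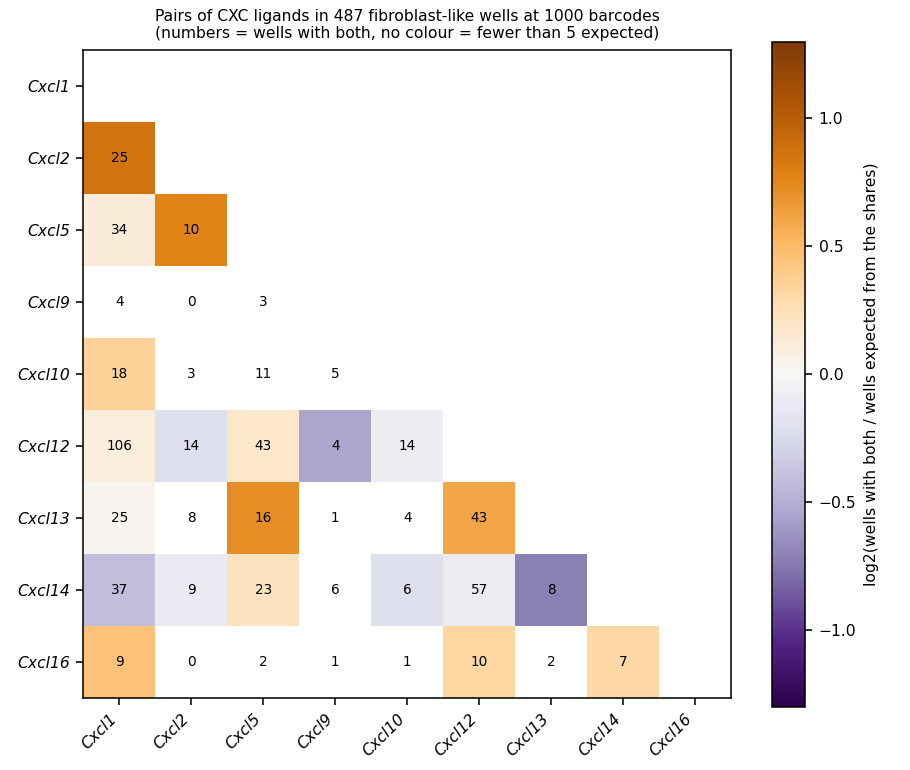
Wells holding both ligands of a pair among 487 fibroblast-like wells at 1000 barcodes, with the number printed and the color giving the log2 ratio to the number expected from the shares within each plate, left without color under 5 expected wells. Cxcl1 with Cxcl2 (25 wells, 13.8 expected) is the darkest orange and Cxcl13 with Cxcl14 (8 wells, 13.2 expected, but 7.22 expected at 500 barcodes) the darkest purple.

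The NF-kB response list of 15 genes (among them Nfkbia, Il6, Ccl2 and Icam1) followed Cxcl1 more closely than Cxcl5. In fibroblast-like wells with Cxcl1 it was 1.84 to 4.42 times as high as in wells without on 6 of 6 plates, and with Cxcl2 1.18 to 2.18 times on 5 of 5 plates. With Cxcl5 it was higher on 3 of 6 plates, at 0.69 to 1.53 times. Deeper wells are more likely to show any ligand, and on plate 1 the median depth was 12485 transcripts with Cxcl1 and 8280 without, while on plate 2 it was 13373 and 14665. Cxcl1 and 9 of 14 NF-kB genes tested were also lower in telocyte-like than in adventitial-like wells, beside 9.15% of all genes tested. Neither this list nor the interferon list was compared within these classes, so that class and ligand cannot be told apart here.

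The difference between genotypes in ligand levels was within the spread between mice. By edgeR, 0 of 10424 genes tested over all kept wells and 0 of 8288 in fibroblast-like wells were called (0.0% in both), with 73 and 135 genes at an unadjusted p under 0.05 and 1 and 4 calls by DESeq2. In fibroblast-like wells 8 of 9 members had a negative estimate in Fib ΔZeb1, with a median of -0.51 beside 0.01 for all genes. Cxcl2 had the largest for its error, -1.42 ± 0.53 (edgeR, unadjusted p = 0.025, adjusted p = 0.9999), at 183 ± 118 CPM for Fib Ctrl against 62.0 ± 32.9 CPM for Fib ΔZeb1 (SD, n = 3 plates each, exact two-sided permutation p = 0.30). Plate 3 at 57.6 CPM lay among the Fib ΔZeb1 plates. Single wells gave 38.6% of the Cxcl2 transcripts of plate 1 and 65.4% of those of plate 4, and without them these plates were at 124 and 103 CPM. Cxcl12 was at 988 ± 247 and 755 ± 212 CPM (exact permutation p = 0.20), Cxcl16 at 51.6 ± 11.3 and 34.0 ± 9.04 CPM (exact permutation p = 0.20) and Cxcl1 at 1293 ± 959 and 940 ± 654 CPM (exact permutation p = 0.70). Cxcl13 had the only positive estimate, 0.66 ± 0.81, at 210 ± 247 and 366 ± 253 CPM (exact permutation p = 0.50). With 3 plates against 3, p cannot go below 0.1. The fibroblast-like sums also differed in their mix of classes. Telocyte-like wells were 27 of 46 fibroblast-like wells on plate 4 and 7 of 106 on plate 5. In these sums, class mix and level within a class cannot be told apart.

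Over all wells, fibroblast-like and neutrophil-like wells, 27 levels were compared, of which 2 did not overlap between genotypes (7.41%), beside 3.58%, 6.36% and 9.6% of genes in these 3 sets. Both were in neutrophil-like wells, Cxcl13 with 6 transcripts and Cxcl16 with 3, all on Fib ΔZeb1 plates. After adjustment over the 27, p was 1.0 for each. Over all kept wells, Cxcl2 was at 3209 and 1521 CPM on plates 3 and 6, which had 185 and 63 neutrophil-like but 18 and 13 fibroblast-like wells, and at 321 to 441 CPM on the other 4 plates. In such sums, fewer cells of a type and less RNA per cell cannot be told apart. The neutrophil-like level of Cxcl2 was 6898 ± 371 CPM for Fib Ctrl against 7011 ± 1991 CPM for Fib ΔZeb1 (SD, n = 3 plates each, exact permutation p = 0.90).

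Receptors of the ligands were counted in few classes. Cxcr2, which is also among the markers of the neutrophil-like class, was at 553 to 996 CPM in these wells and at 14.7 to 49.9 CPM in fibroblast-like wells. Cxcr4, the receptor of Cxcl12, was at 313 to 918 CPM in neutrophil-like wells and 0 to 3.84 CPM in fibroblast-like wells, higher by 9.44 (edgeR, adjusted p = 7.30e-16). The scavenger Ackr3 was on the side of its ligand, at 152.2 to 282 CPM in fibroblast-like and 0 to 30.7 CPM in neutrophil-like wells, lower there by -4.16 (edgeR, adjusted p = 1.40e-08), and it was also lower in mural-like (-1.95) and epithelial-like wells (-5.88, edgeR, adjusted p = 0.0014 and 5.71e-09). Of 3 receptors tested, 2 were thus higher and 1 lower in neutrophil-like wells, beside 23.9% and 43.5% of all genes tested. Cxcr3 was at 0 in these 4 classes, and Cxcr5 and Cxcr6 came to 1 and 3 transcripts there (Cxcr6 to 32.0 over all kept wells), so that the receptors of Cxcl9, Cxcl10, Cxcl13 and Cxcl16 were barely or not detectable in these classes at this depth. Cxcr4 was also higher in mural-like wells (3.24, edgeR, adjusted p = 0.027), from 6 transcripts. Within fibroblasts, Ackr1 (-3.96) and Ackr3 (-1.02) were lower in telocyte-like than in adventitial-like wells (edgeR, adjusted p = 2.80e-05 and 0.010).

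Of the 6 other CXC ligands listed, Cxcl3, the closest relative of Cxcl2, was tested. It was at 135 to 926 CPM in neutrophil-like wells, higher by 7.38 ± 0.96 (edgeR, adjusted p = 7.15e-08), and 5 fibroblast-like wells had it. Cxcl2 shares 7.17% of its 30-base words with other transcripts, mostly with Cxcl3, so that a part of the reads of the 2 genes could be exchanged. Pf4, Ppbp, Cxcl11, Cxcl15 and Cxcl17 stayed at a mean of 0 to 16.9 CPM in all 4 classes. Among 4 tested proteases that cut chemokines, Mmp8 (9.30) and Mmp9 (5.59, itself a marker of the class) were higher in neutrophil-like wells, and Mmp9 was also higher in telocyte-like than in adventitial-like wells (4.98, edgeR, adjusted p = 2.17e-05). Adam10, which sheds Cxcl16, was higher in epithelial-like wells (1.19, edgeR, adjusted p = 0.020), and Mmp9 was lower there (-2.38, edgeR, adjusted p = 0.047), as 1 higher and 1 lower of the 4 tested. Of all genes tested 7.82% were called higher and 16.6% lower there.

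The 2 response lists went apart between fibroblast classes. In telocyte-like wells 0 of 14 NF-kB response genes tested were higher and 9 lower than in adventitial-like wells, among them Il6 (-5.07) and Ccl2 (-3.30), with a median of -1.28 beside 0.01 for all genes. Of 13 interferon response genes 6 were higher, among them Gbp2 (1.11), and 0 lower, with a median of 1.03. Of all genes tested in this comparison 7.33% were called higher and 9.15% lower. The adventitial markers include Ptx3, Has1, C3 and Cd55, and C3 was the paper's stain for iCAFs, the inflammatory type. How far this choice of markers sets the differences in NF-kB genes and Cxcl1 was not tested. In neutrophil-like wells 9 of 15 NF-kB genes were higher and 4 lower (Ccl2, Ccl7, Il6 and Vcam1), and 8 of 15 interferon genes were higher and 0 lower, with medians of 1.21 and 1.12 beside -0.78. There 23.9% of all genes tested were called higher and 43.5% lower, the latter a larger share than 4 of 15. In epithelial-like wells 6 of 15 NF-kB and 7 of 15 interferon genes were lower and 0 higher, with medians of -0.65 and -1.68. The shares of all genes tested were 16.6% lower and 7.82% higher. Mural-like wells had 1 NF-kB gene higher (Il6, 2.21) and 4 lower (Ccl7, Icam1, Ptgs2 and Vcam1), and 0 interferon genes past the test. For them 6.29% of all genes tested were called higher and 7.47% lower.

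The genes most like each ligand over 18 sums of plate and class, by Pearson's r of log2(CPM + 10) among 9371 genes, describe these classes again. Cxcl2 was closest to Cxcr2 (r = 0.97), Zswim4 and Wfdc17 (0.97 and 0.96), Cxcl12 to Nsg1 (0.95), Mmp2 and Serpina3n, and Cxcl13 to Cilp (0.95), Gdf10 and Has1. Cxcl10 was closest to Gbp2 (0.83), H2-K1 and Irf1. Cxcl1 was closest to Phldb1 (0.91), Sepw1 and Ikbip, Cxcl14 to Fam3c (0.92), Leprot and Pltp, Cxcl16 to Tnfrsf11b (0.93), Rasl11b and Atp13a3, and Cxcl5 to Mgp (0.88), Rrs1 and Baiap2. The likeness was lowest for Cxcl9, with Cnn1 at 0.79. Among the members themselves Cxcl12 and Cxcl13 were most alike (r = 0.83) and Cxcl2 and Cxcl14 least (r = -0.68). The sums share plates and class markers, and these values carry no test.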

How the data were processed

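Single cells of 6 AOM/DSS tumors (1 plate per mouse, 3 mice per genotype) were analysed, grouped by the transgene and genotype labels. Per its methods, the study mapped reads with bwa on GRCm38 transcripts and used a counting program of the sequencing provider, while the submitters' processing notes name BWA and Cell Ranger 2.1.1. Deposited barcode counts are whole counts of molecular barcodes per gene and well. Deposited transcript counts are estimated counts that the authors corrected for shared barcodes. Neither was normalized or filtered on wells. Whether strand was used in counting is not given in the sources used here.

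Spike-in RNA (7.85% to 18.58% of a plate) was left out. Wells of 100 to 6000 genes with less than 10% mitochondrial transcripts were kept, and kept transcripts were 667892 to 3141934 per plate. Each well was classed by the mean log-normalized level of marker lists, with borders set on the markers, 26 mixed wells set apart, 26 wells past both the fibroblast and the mural border taken as mural, and no doublet caller. The list of mononuclear phagocytes gave no class. Estimated counts were summed per plate and class (at least 10 wells), rounded and tested by the quasi-likelihood test of edgeR 4.0.16 with TMM factors and filterByExpr, at a Benjamini-Hochberg adjusted p of 0.05. An SE is the size of the log2 fold change divided by the root of its F statistic. Scripts were tested on simulated data. Shares of wells used barcode counts thinned to 1000 per well. Between genotypes, CPM of plates entered an exact permutation test (two-sided). Alternatives were DESeq2 1.42.0, RLE factors, no filter on low counts, barcode counts, a mitochondrial limit of 20%, wells near a border, no plate term, wells with Ptprc or Epcam left out, at least 5 wells (chosen after the data were seen) and leaving out each plate.

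The members and lists were chosen with earlier results of these data known. Named were all members, pathway genes needed for counts of 5 or fewer, examples from longer counts, and the 3 genes most alike to each member. Il6, Ccl2, Gbp2 and the leading wells were picked as examples after their values were seen. Each plate is 1 mouse, so p-values between genotypes measure the spread between these mice. Those between classes come from fits with plate as a term and measure the spread of class differences within plates. Plate 6 alone came from the other sequencing run, so values within that run cannot be had, and the fits without plate 6 stand for the first run. Gene positions are from GENCODE M21 and promoters from RefSeq. No 2 kept wells of different plates held identical counts.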

Additional observations from a re-analysis of the deposited data

Results flagged for a closer look

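On plate 3, a Fib Ctrl mouse, the interferon-induced pair stood apart from the other 5 plates by Dixon's criterion. Cxcl10 was at 911 CPM over all kept wells, at 1099 CPM in fibroblast-like and at 1027 CPM in neutrophil-like wells. Cxcl9 was at 283 CPM in fibroblast-like and 23.6 CPM in neutrophil-like wells. In fibroblast-like wells 1 well held 84.6% of these Cxcl10 and 98.6% of these Cxcl9 transcripts, and in neutrophil-like wells 1 of 38 wells held 20.5% of Cxcl10. The summed interferon response genes were highest on plate 3 in both classes, at 2095 and 4105 CPM. In all, 27 groups of 6 plates were examined and these 5 stood apart. Chance flags about 1 in 20 groups, but the 5 are 2 genes of 1 plate, share wells and are no independent counts, and Cxcl9 in neutrophil-like wells stood apart with 7 transcripts because the other plates were at 0.

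The 981 wells at or above 10% mitochondrial transcripts, left out of the main comparisons, also held the 9 ligands. Their levels were 238 CPM for Cxcl1, 326 CPM for Cxcl2, 303 CPM for Cxcl5, 9.73 CPM for Cxcl9, 40.8 CPM for Cxcl10, 259 CPM for Cxcl12, 90.1 CPM for Cxcl13, 478 CPM for Cxcl14 and 49.6 CPM for Cxcl16. Each was above the 0.42 CPM that 3 transcripts give in these wells. Those below 20% entered the comparisons in the alternative with that limit.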

How the results depend on the processing

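Among member values, 487 of 538 kept direction and side of the threshold when the processing was changed, and 319 of 372 when a plate that held wells of the comparison was left out. Cxcl2 in neutrophil-like against fibroblast-like wells (5.68 to 6.73 without single plates) and Cxcl14 in telocyte-like against adventitial-like wells (3.35 to 3.98) did so throughout. Causes were not tested. The comparison with mononuclear phagocytes was not run, for want of such a class. Genotypes were not compared in pairs because the labels do not pair the mice. Classes were compared with plate as a term. Depth limits Cxcl9, Cxcl13 and Cxcl16 in neutrophil-like and epithelial-like wells, where few transcripts were counted.

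Counts of called genes moved by more than 1.5 times as follows. DESeq2 gave 1 and 4 genes for genotype (all and fibroblast-like wells, 0 by edgeR), 742 for telocyte-like against adventitial-like (1154 by edgeR) and 108 for other against adventitial-like (213). Without a filter on low counts, epithelial against fibroblast-like gave 2454 (1533 with it), other against adventitial-like 496 and telocyte-like against other 417 (167 with it). A mitochondrial limit of 20% gave 735 and 254 for the last 2, no plate term gave 94 and 78, and leaving out wells near a border gave 278 for telocyte-like against other. Leaving out a plate gave 532 to 1160 for mural against fibroblast-like (864 with all, lowest without plate 2), 535 to 1154 for telocyte-like against adventitial-like, 2 to 307 for other against adventitial-like and 0 to 195 for telocyte-like against other (each lowest without plate 2 and also lower without plate 1, at 736, 66 and 78). Of the 27 levels by genotype, 2 to 6 did not overlap when a plate was left out, 6 of them without plate 1.

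The following log2 fold changes turned sign in an alternative, and some of them were large. By genotype over all kept wells, leaving out a plate gave -0.68 to 0.87 for Cxcl1, -1.96 to 1.05 for Cxcl2, -2.42 to 1.17 for Cxcl9, -2.14 to 0.59 for Cxcl10, -1.06 to 0.075 for Cxcl12, -0.60 to 2.30 for Cxcl13, -0.61 to 0.56 for Cxcl14 and -0.88 to 0.14 for Cxcl16, where Cxcl2, Cxcl9 and Cxcl10 turned without plate 3. Cxcl13 was also at 0.25 without wells that held Ptprc or Epcam. In fibroblast-like wells it gave -0.95 to 0.47 for Cxcl1, -1.90 to 0.88 for Cxcl9, -2.20 to 0.47 for Cxcl10 and -0.82 to 0.91 for Cxcl14. For mural against fibroblast-like, it gave -0.61 to 0.13 for Cxcl1 and -4.09 to 0.92 for Cxcl10, with Cxcl1 at 0.089 under the limit of 20% and Cxcl9 at -0.17 with DESeq2. For epithelial against fibroblast-like, Cxcl2 was at -1.79 to 0.75 without single plates, 0.056 under the limit of 20%, 0.50 without wells near a border and 0.93 with at least 5 wells. For telocyte-like against adventitial-like, Cxcl2 was at -1.18 to 0.16 without single plates, Cxcl5 at 0.26 without wells near a border and 0.54 with at least 5 wells, and Cxcl10 at 0.65 with at least 5 wells. For other against adventitial-like, Cxcl5 was at 0.92 under the limit of 20%, 0.45 with no plate term and 0.59 with at least 5 wells, and without wells near a border Cxcl9 was at -2.14, Cxcl10 at -9.19 and Cxcl16 at -1.26. For telocyte-like against other, leaving out a plate gave -0.084 to 1.08 for Cxcl1, -1.78 to 0.42 for Cxcl9, -1.80 to 0.24 for Cxcl13 and -0.033 to 0.91 for Cxcl16, Cxcl16 was at -0.33 under the limit of 20% and -0.063 with at least 5 wells, and without wells near a border Cxcl5 was at 3.13, Cxcl9 at 7.36, Cxcl10 at 8.34 and Cxcl13 at 8.66.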
